A study of Mus musculus with 12 samples.

Results

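Windows of 100 kb in which H3K27me3 domains filled at least 50% of the sequence in both young and adult mouse hepatocytes were taken from the 19 autosomes. They were selected on the percent of base pairs covered in each of 2 deposited domain lists, 1 per age. A window was a member where cover was 50% or more in both lists and the M2 value minus the P14 value lay above -20 and below 30 percentage points. Of 24129 windows lying wholly between the first and last domain of a chromosome, 2309 (9.57%) met the rule. Another 51 windows had 50% or more in both lists but lay outside the limits on the difference, 41 on the M2 side and 10 on the P14 side.

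The P14 group consisted of hepatocytes from wild-type mice at postnatal day 14, with 4 ChIP and 4 input samples, each from 2 males and 2 females. The M2 group consisted of hepatocytes from wild-type mice at 2 months, with 2 ChIP and 2 input samples of unknown sex, all labelled as re-analyses of samples deposited elsewhere. Cells were obtained by liver perfusion and slow centrifugation. Each list was read as pooled over the samples of its age, so a value has no replicate, and age cannot be told apart from sample origin, number of samples or sex. Domains covered 22.4% of the autosomal span at P14 and 28.8% at M2. The lists name no genes, and no gene was placed on the mm9 coordinates, so the hepatocyte label was not checked against marker genes and no gene or sequence is given for a window.

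H3K27me3 is the trimethylation of lysine 27 on histone H3. Polycomb repressive complex 2 deposits it through the methyltransferases EZH1 and EZH2, and its EED subunit binds the finished mark, which lets the complex spread along neighbouring nucleosomes. Broad, dense domains are the classical form of the mark over silenced developmental regulators such as the Hox clusters, while weaker and more scattered marking is found over much inactive chromatin. In the liver after birth, the mark is known for holding genes silent while hepatocytes mature.

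The member windows were a small part of the autosomes but held much of what both ages shared. Members contained 153.3 of the 540.6 Mb covered at P14 (28.4%) and 172.6 of the 694.9 Mb covered at M2 (24.8%). They contained 129.7 of the 313.3 Mb covered at both ages (41.4%). Of the P14 domains of 50 kb or more, 120 touched a member and 3 did not. At M2 these numbers were 344 and 10. Of domains of any length, 12.8% touched a member at P14 and 10.3% at M2. A domain of 50 kb or more can fill much of a 100 kb window, and members were chosen on cover. These shares therefore describe the members and do not set them apart. Long domains were not needed for membership, since the longest piece in a member was as short as 6 kb at either age.

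Cover of the members ranged from 50% to 100% at both ages. The median was 64% at P14 (quartiles 57% and 74%) and 75% at M2 (quartiles 65% and 85%). Over all windows the medians were 16% and 25%. Cover reached 80% or more in 371 members at P14, in 870 at M2 and in 338 at both ages. For 90% or more these counts were 98, 331 and 89. The M2 list is longer, and the rule used these covers and lets M2 run further ahead than P14. Nothing is therefore read from the higher M2 counts.

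The difference of M2 minus P14 had a median of 8 points in members and 5 points in all windows. M2 cover was higher in 1864 members (80.7%), P14 cover in 368 (15.9%), and 77 had equal cover. Over all autosomal windows, M2 was the more covered age in 62.7% and P14 in 33.4%. The rule used this contrast and lets M2 run further ahead than P14, so nothing is read from the members' share. Differences of 1 to 9 points were seen in 843 members, of 10 to 19 points in 758 and of 20 to 29 points in 263. On the other side, 319 members were higher at P14 by 1 to 9 points and 49 by 10 points or more.

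**Figure D1:**
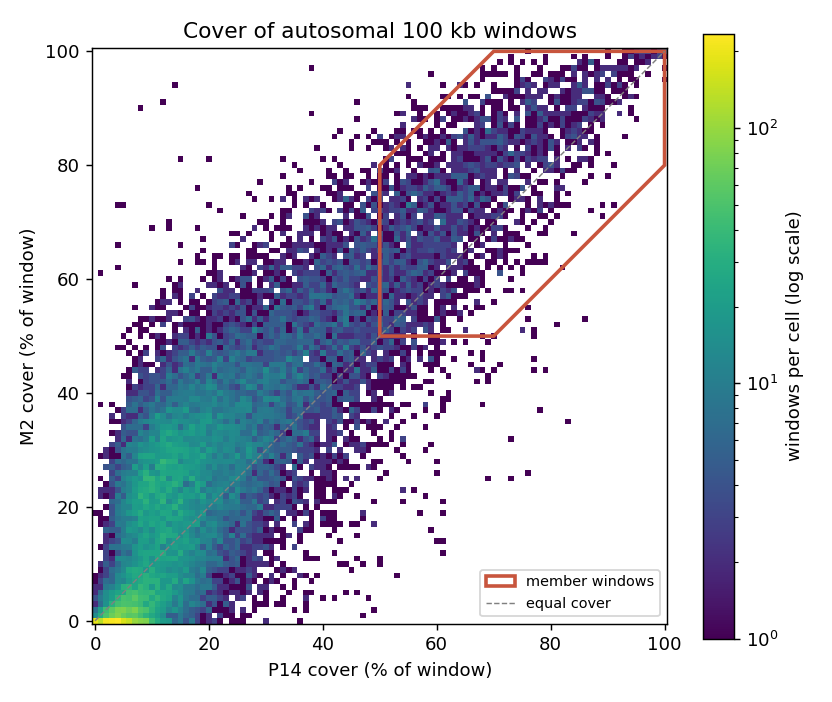
Percent of each autosomal 100 kb window covered by H3K27me3 domains at P14 (x axis) and M2 (y axis), with the number of windows per cell as colour on a log scale. The outlined field holds the 2309 members, most of which lie above the dashed line of equal cover, while the bulk of the windows lies near the medians of 16% and 25%.

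The cover minimum cuts through a continuous range. The 204 members whose lower cover was 50% or 51% had medians of 51% at P14 and 59% at M2. The 213 windows just below, at 48% or 49% and within the same limits on the difference, had medians of 49% and 57%. Of the P14 length, 74.3% was also covered at M2 in the former and 72.6% in the latter. At the upper limit, 25 members differed by 28 or 29 points and 13 windows dense at both ages by 30 or 31. At the lower limit, 3 members differed by -18 points and 3 dense windows lay just outside. Windows just inside and just outside the minimum were thus alike in these values.

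A few windows were filled almost completely at both ages. In 6 members every 1 kb bin, the step of the authors' grid, was covered in both lists by a single domain. In mm9 they lay on chromosome 2 from 74500001 to 74600000, chromosome 4 from 136700001 to 136800000, chromosome 6 from 52100001 to 52200000, chromosome 7 from 75100001 to 75200000, chromosome 11 from 96100001 to 96200000 and chromosome 19 from 56900001 to 57000000. Of the members whose lower cover was 99%, some are given. That on chromosome 7 from 75200001 to 75300000, next to one of the filled windows, had 99% at P14 and 100% at M2. On chromosome 15 the window from 102700001 to 102800000 had the same pair of values. On chromosome 8 the window from 12000001 to 12100000 had 100% and 99%, and its neighbour from 12100001 to 12200000 had 99% at both ages. Windows of this kind were rare: 9 members reached 100% at P14 and 22 at M2.

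The next description concerns whether the same 1 kb bins carried the mark. Of the bins covered at P14 in members, 84.6% were also covered at M2, and 75.1% of the M2 bins were covered at P14. In the other windows these shares were 47.4% and 35.2%. Dense windows must share bins: given their covers, members had to share at least 95074 kb and could share at most 151454 kb, and they shared 129719 kb. Within each window's own possible range, the median member stood 59% of the way from the lowest to the highest sharing its covers allow (2284 members with a range). In 60 of all 2309 members the sharing was the highest possible, so that all bins of the less covered age lay inside those of the other. These include every member filled completely at 1 age, where the covers fix the sharing. Such windows numbered 9 at P14 and 22 at M2, with 6 filled at both. Among members with a range, the sharing lay below the midpoint in 616. Of all bins in members, 56.2% were covered at both ages, 18.6% at M2 alone, 10.2% at P14 alone and 15.0% at neither.

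The mark was broken into fewer pieces at M2. A piece is a stretch of unbroken cover inside a window, and a domain that crosses a window border counts once in each window. Members held a median of 12 pieces at P14 (quartiles 9 and 14) and 9 at M2 (quartiles 6 and 12). There were fewer pieces at M2 in 1694 members (73.4%) and more in 387 (16.8%). Over all windows, 52.4% had fewer pieces at M2 and 38.7% had more. The longest piece had a median of 17 kb at P14 and 24 kb at M2, and it was longer at M2 in 1663 members (72.0%) and in 56.0% of all windows.

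Higher cover in a dense window leaves less room for gaps, so members of nearly equal cover were also described alone. In the 759 members within 5 points of equal cover, the mean number of pieces was 10.5 at P14 and 9.15 at M2. There were fewer pieces at M2 in 62.6% of them, more in 25.0% and the same number in 12.4%. Without domains of 1 kb, the share with fewer pieces was 54.4%. Among 1922 other windows with at least 20% in both lists and within 5 points, 69.9% had fewer pieces at M2 and 18.5% had more. The step towards fewer pieces at equal cover was therefore also seen outside the members, where its share was higher. In the 368 members covered more at P14, 203 had fewer pieces at M2 and 125 had more. Over all autosomal windows, whichever age covered more, 52.4% had fewer pieces at M2 and 38.7% had more. The share among all windows covered more at P14 was not computed, so nothing is read from the 203.

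The number of pieces was lower at higher cover at both ages. Members with 50% to 59% cover held a mean of 13.2 pieces at P14 (796 windows) and 11.1 at M2 (324 windows). At 70% to 79% the means were 11.1 and 10.5. At 90% or more they were 4.67 and 4.37. The means of the ages were thus further apart in the lowest class than in the highest. In the highest class few bins are free, which caps the number of pieces and the distance between the ages. Nothing is therefore read from this narrowing, or from the lower numbers at higher cover. Among windows that were not members, the mean was the higher one at M2 in the classes given next. At 50% to 59% they held a mean of 12.7 pieces at P14 (197 windows) and 13.5 at M2 (1186 windows), and at 60% to 69% the means were 12.4 and 13.1. These are different windows at the 2 ages, unlike those of nearly equal cover compared above, which are the same windows.

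**Figure D2:**
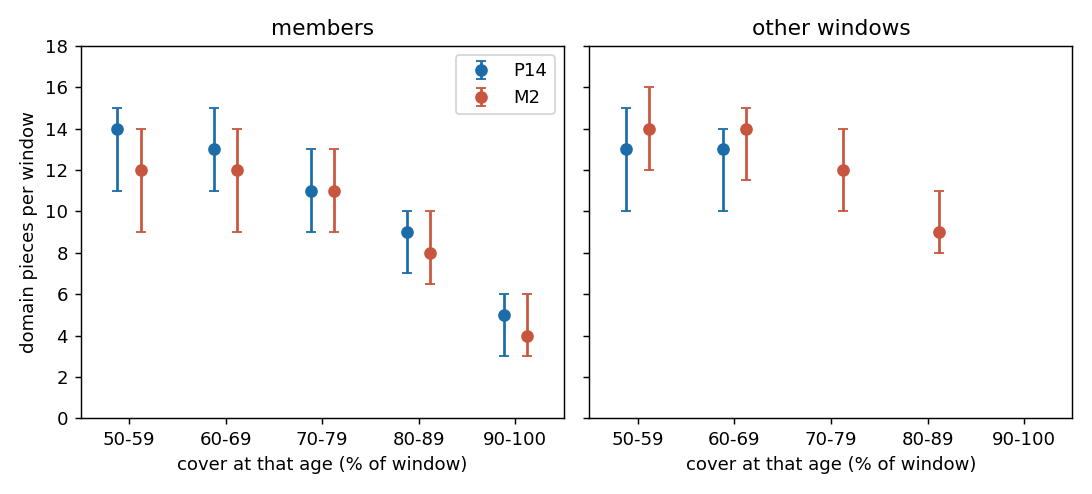
Median number of domain pieces per 100 kb window by cover at that age, for P14 (blue) and M2 (red), in members (left) and in the other windows (right). Bars span the quartiles over windows, and classes of fewer than 20 windows are left out. In members the mean goes from 13.2 at P14 and 11.1 at M2 in the lowest class to 4.67 and 4.37 in the highest.

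Single windows showed the contrast in pieces at its extremes. On chromosome 4 from 153200001 to 153300000, cover was 71% at P14 and 98% at M2, in 16 and 3 pieces, and the longest piece measured 10 kb and 84 kb. On chromosome 6 from 52000001 to 52100000, which lies directly before a window filled at both ages, 14 pieces at P14 stood against 2 at M2, at 73% and 99% cover. The other members with at least 12 fewer pieces at M2, of 4 in all, were on chromosome 4 from 127300001 to 127400000, where 16 stood against 4, and from 128000001 to 128100000, where 15 stood against 3.

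The opposite contrast was smaller. The largest excess of M2 pieces was seen on chromosome 9 from 28200001 to 28300000, where 11 pieces at P14 stood against 20 at M2. Both ages covered 51% of that window, yet only 23 kb were covered at both, close to the lowest sharing among members (20 kb). On chromosome 17 from 9300001 to 9400000, 9 pieces at P14 stood against 16 at M2, at 69% and 78% cover. Equal cover in a member thus did not require that the same bins were covered.

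Gaps between domains were compared next, to see where inside the members one age covered what the other left free. Members contained 25475 complete P14 gaps, whose median length was 2 kb. A single bin made up 9383 of them. Of these single bins, 76.1% were covered at M2, against 84.6% of the bins inside P14 domains. Covered share went down with gap length. It was 59.7% of the length for P14 gaps of 3 to 5 kb, 32.7% for gaps of 11 to 20 kb and 11% for the 52 gaps over 20 kb. The longer a P14 gap, the more of it was free at both ages.

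The reverse shares were lower for gaps up to 20 kb. Of 8837 single-bin M2 gaps in members, 56.9% were covered at P14. For M2 gaps of 11 to 20 kb it was 30.8% of the length, and for the 66 gaps over 20 kb it was 18.7%, above the 11% of the other direction. In the other windows, 46.6% of single-bin P14 gaps were covered at M2 and 26.7% of single-bin M2 gaps at P14. Mean cover was 74.8% at M2 and 66.4% at P14 in members, against 23.9% and 17.7% in the other windows. Single-bin P14 gaps in members were thus covered at M2 about as often as any bin of a member, while in the other windows they were covered well above the mean level.

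**Figure D3:**
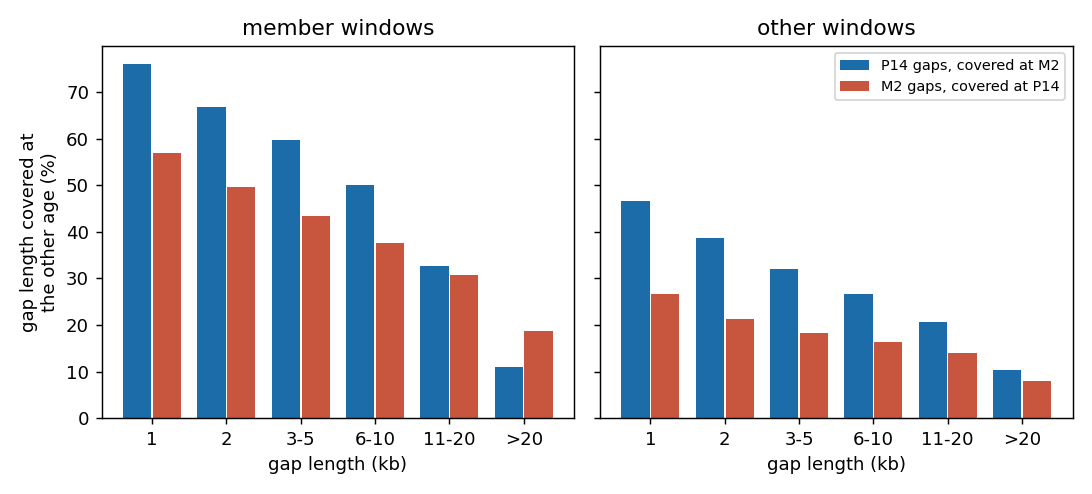
Percent of gap length covered at the other age, by gap length in kb, for complete gaps between domains in members (left) and in the other windows (right). Blue bars are P14 gaps covered at M2 and red bars M2 gaps covered at P14. In members they start at 76.1% and 56.9% for gaps of 1 kb, and only for gaps over 20 kb is the red bar the higher one, at 18.7% against 11%.

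Some stretches inside the members stayed free of domains in both lists. Runs of members contained 14779 such stretches, of which 50.2% were single bins and 316 reached 10 kb. The 2 longest that were not cut by the end of a run measured 49 kb, on chromosome 7 from 138777001 to 138826000 and on chromosome 14 from 25485001 to 25534000. In the 20 kb on either side of the chromosome 7 stretch, cover was 92.5% at P14 and 95% at M2. Beside the chromosome 14 stretch it was 77.5% and 85%. On chromosome 5 a free stretch of 35 kb, from 113951001 to 113986000, was flanked by 95% and 100%. Dense cover thus ended on both sides of a long free stretch at both ages.

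Some long free stretches had thinner surroundings. On chromosome 2 from 74664001 to 74697000, a stretch of 33 kb had 40% at P14 and 30% at M2 beside it, although it lay in the same run as the filled window of that chromosome. The remaining 6 of the 10 longest measured 30 to 37 kb, with 47.5% to 82.5% beside them at P14 and 47.5% to 77.5% at M2. Mappability and sequence content of these stretches were not examined.

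Edges of domains were compared between the lists, starts with starts and ends with ends. In members, 48.6% of 39919 M2 edges lay within 1 kb of a P14 edge of the same kind, against 37.0% over all autosomal windows and their margins. In the other direction, 37.6% of 51879 P14 edges in members lay within 1 kb of an M2 edge, against 35.8% overall. The same 1 kb bin was shared by 19.2% of the M2 edges and 14.7% of the P14 edges in members. Outside the members these shares were 14.6% and 14.5%, so that of the P14 edges was nearly the same. Members held more P14 than M2 edges, so an M2 edge there had more P14 edges to meet. The part of this excess in the higher M2 share was not tested.

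Members lay on every autosome, with shares of windows from 3.71% to 16.8%. Chromosome 11 had the highest share, with 199 of 1187 windows (16.8%), followed by chromosome 7 with 224 of 1494 (15.0%) and chromosome 9 with 179 of 1210 (14.8%). The lowest shares were on chromosome 3, with 58 of 1565 windows (3.71%), chromosome 10 with 51 of 1269 (4.02%) and chromosome 16 with 52 of 953 (5.46%). The 3 chromosomes richest in members were also those of highest mean P14 cover, at 25.2% to 27.3%, and the 3 poorest those of lowest, at 17.9% to 19.4%. Mean M2 cover was also highest on the 3 richest, at 31.6% to 32.9%, and lowest on chromosomes 10 and 3, at 23.9% and 26.0%. Chromosome 16 did not follow this order. Its mean M2 cover was 28.5%, against 26.6% on chromosome 13, where 8.97% of windows were members. Members were chosen on cover at both ages, so nothing is read from these orders.

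The difference in cover is given by chromosome as values only, since the rule used it. The share of members covered more at M2 ran from 65.4% on chromosome 19 to 92.5% on chromosome 18. The median difference ran from 4 points on chromosome 19 to 13 points on chromosome 5, where 154 of 169 members were covered more at M2. Fewer pieces at M2 were seen in 58.8% of members on chromosome 14, the lowest value, where all windows gave 48.4%. The highest value was 81.7% on chromosome 5, where all windows gave 54.1%. Members also differed in share along the chromosomes. In 5 equal divisions of each span, in the direction of increasing coordinates, they made up 5.09%, 8.80%, 8.32%, 10.6% and 15.0% of windows, with a median difference of 8 or 9 points in each division.

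**Figure D4:**
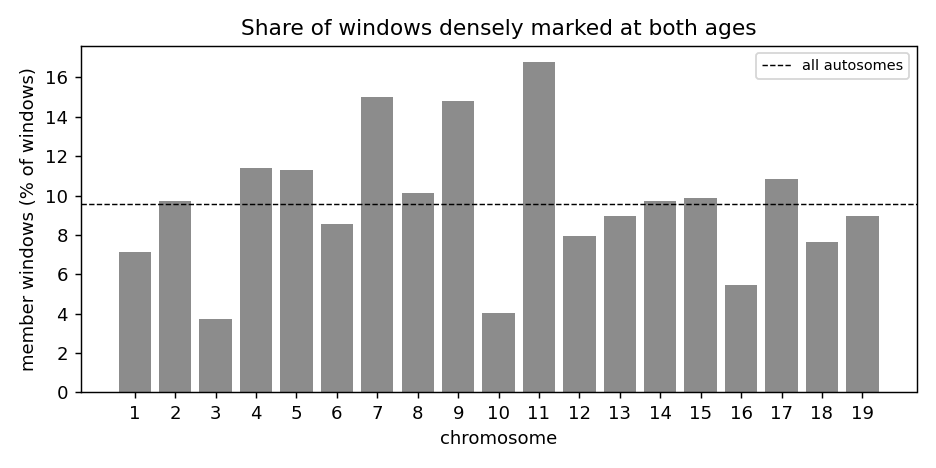
Percent of the 100 kb windows of each autosome that were members, with the 9.57% of all autosomes as a dashed line. Chromosomes 7, 9 and 11 stand at 14.8% to 16.8%, and chromosomes 3 and 10 at about 4%.

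Members were grouped along the chromosomes. The 2309 members formed 1121 runs of adjacent windows, and 1714 (74.2%) stood in runs of 2 or more. There were 94 runs of 5 or more windows, which held 617 members. Cover was higher in longer runs, with a median of 59% at P14 and 69% at M2 for the 595 lone windows and 72.2% and 80.4% for runs of 5 or more. The difference between the ages did not follow this order, with medians of 7 points for lone windows, 8.5 for runs of 2 to 4 and 7.83 for runs of 5 or more.

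Neighbouring members were compared in their difference between ages. The median absolute gap between the differences of adjacent windows was 7 points in members and 7 points in all windows. Across 1188 pairs of adjacent members, the Pearson correlation of the differences was 0.25, against 0.51 across 24110 adjacent pairs of all windows. Neighbours share domains that cross the border, and the rule narrows the range of the differences among members. Of the 526 runs of 2 or more, 312 were covered more at M2 in every window, 11 more at P14 in every window and 170 contained windows of both directions.

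The longest run spanned 13 windows on chromosome 8 from 94200001 to 95500000. Domains covered 76.2% of it at P14 and 80.4% at M2, and 86.8% of its P14 length was also covered at M2. Cover of single windows went from 62% to 86% at P14 and from 60% to 97% at M2. The window from 95000001 to 95100000 differed most towards M2, with 75% at P14 against 92%. Of the 13 windows, 11 were covered more at M2. The exceptions were the first, from 94200001 to 94300000, where 73% stood against 60%, and that from 94800001 to 94900000, where 70% stood against 65%. The whole run held 135 pieces at P14 and 93 at M2.

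The second run, of 12 windows on chromosome 7 from 138600001 to 139800000, had a cover of 78.2% in the P14 list and 83.4% in the M2 list. It holds one of the free stretches of 49 kb, and the windows on which that stretch lies had the lowest cover, 51% and 56% at P14 and 56% and 62% at M2. From 138900001 to 139800000 each window had 79% or more at both ages. The pieces numbered 93 at P14 and 68 at M2.

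Next came 4 runs of 11 windows, and they differed in how far M2 stood ahead. On chromosome 15 from 73500001 to 74600000 cover was 84.4% at P14 and 85.2% at M2, with 6 windows higher at M2 and 5 at P14. On chromosome 4 from 130300001 to 131400000 it was 78.3% and 89.8%, higher at M2 in all 11 windows, and 95 pieces at P14 stood against 31 at M2. On chromosome 12 from 107900001 to 109000000 it was 61.5% and 78.7%, again higher at M2 in all 11 windows. This run had the lowest P14 cover among the 10 longest and the widest gap between the ages, of 17.3 points.

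On chromosome 11 from 80700001 to 81800000, the last of the 4, cover was 77.6% at P14 and 87.5% at M2, higher at M2 in all 11 windows. The other runs named held 9 or 10 windows. Of 6 runs tied at 9 windows, the 3 of highest lower cover were taken. These other runs lay on chromosome 8 from 89500001 to 90500000, chromosome 2 from 74500001 to 75400000, chromosome 7 from 143200001 to 144100000 and chromosome 5 from 101400001 to 102300000. Among the 10 named, with 3 tied runs of 9 windows left out, only the run on chromosome 7 from 143200001 had lower cover at M2, with 78.4% at P14 and 77.4% at M2. Its first window, from 143200001 to 143300000, had 89% at P14 against 73%. Pieces were fewer at M2 in each of the 10 named runs.

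**Figure D5:**
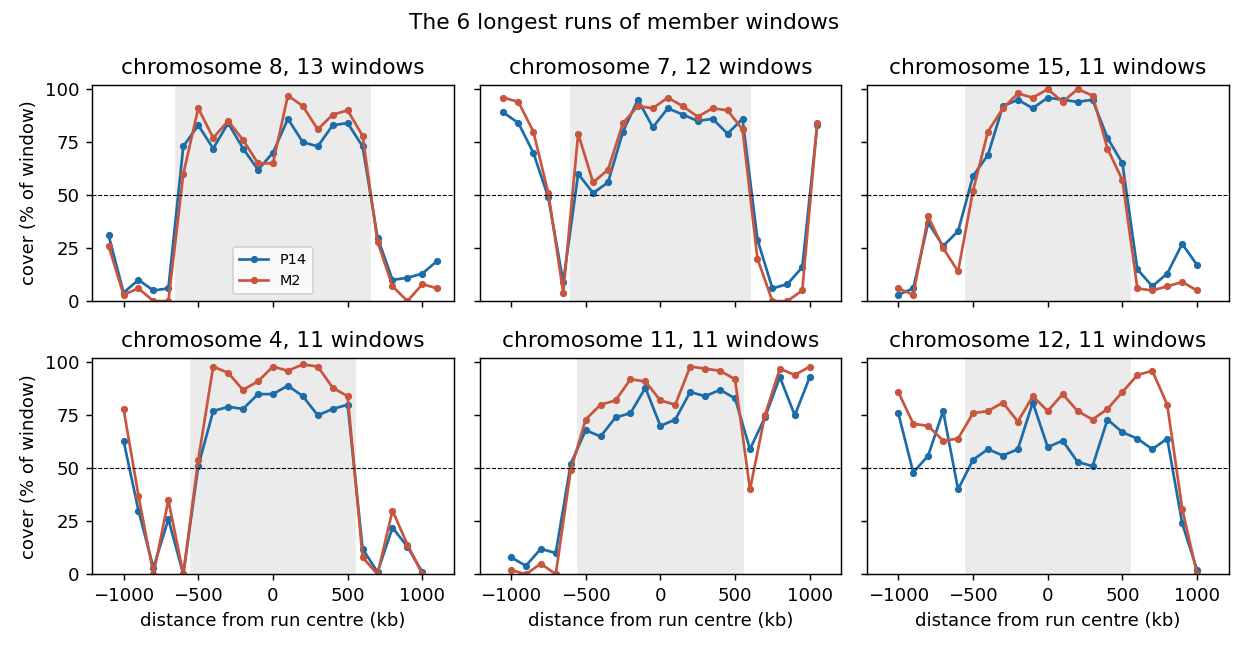
Cover of 100 kb windows at P14 (blue) and M2 (red) against distance from the centre of the run in kb, for the 6 longest runs (shaded) with 5 windows on each side. The dashed line marks the 50% minimum. On chromosomes 4, 7, 8 and 15 cover is at 33% or less at both ages in the windows directly beside the run, whereas on chromosomes 11 and 12 it is between 40% and 94%.

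The members furthest from equal cover are given as values only, since the rule used this difference. Towards M2, 16 members stood at 29 points, and the 2 of them with the highest P14 cover are given. One was chromosome 5 from 129700001 to 129800000, where cover was 68% at P14 and 97% at M2 and all 68 P14 bins were covered at M2, of which the covers force all but 3. The other, chromosome 6 from 99900001 to 100000000, gave 65% and 94%, again with every P14 bin covered at M2. Towards P14, chromosome 5 from 68200001 to 68300000 had 91% and 73%, and chromosome 5 from 33800001 to 33900000 had 89% and 71%.

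Windows beside the runs were thinly or thickly marked depending on the place. The 2049 windows that border a run had medians of 33% at P14 and 38% at M2, above the 16% and 25% of all windows. Both ages were under 50% in 1336 of them (65.2%), M2 alone reached 50% in 559 (27.3%) and P14 alone in 114 (5.56%). In 414 (20.2%) both ages were under 20%. On chromosome 8 the window before the longest run, from 94100001 to 94200000, had 6% at P14 and no M2 domain. Neither age had a domain in the window before the run on chromosome 4, from 130200001 to 130300000. After the run on chromosome 12, by contrast, the window from 109000001 to 109100000 had 64% and 94%, and it fell outside the members only through its difference of 30 points.

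On a finer scale, mean cover went down over some 80 kb outside a run. In the last 10 kb inside runs it was 53.0% at P14 and 60.7% at M2, and in the first 10 kb outside 45.6% and 53.5%. From 70 to 80 kb outside it was 26.4% and 30.6%. From 190 to 200 kb it was 30% and 33%, with other members included, against 22.4% and 28.8% over all windows. M2 was ahead by 7.90 points just outside the runs and by 3.00 points at 190 to 200 kb, against a mean of 6.39 points over all windows. The ratio of M2 to P14 cover differed less, at 1.17 and 1.10 in these places. A drop at the border is given by the rule, since bordering windows are those that failed it.

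Windows beside the runs were also set against other non-members of like cover. The rule used these covers and so sets which windows border a run. The shares are therefore given as values only. Where the mean of both covers was from 10% to under 20%, 63.3% of 251 bordering windows were covered more at P14, with medians of 16% at P14 and 13% at M2. Of 5725 windows of the same class that do not border a run, 29% were covered more at P14, with medians of 12% and 18%. From 20% to under 30% these shares were 39.0% of 292 and 14.5% of 4764. Below 10% they were close, at 81.7% of 241 and 76.2% of 5257. Across the classes from 10% to 50%, bordering windows were covered more at P14 in a higher share than other non-members. These shares have no replicate, and whether the way the domains were called enters into them was not tested.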

How the data were processed

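H3K27me3 ChIP-seq samples and their inputs were reduced by the authors to 1 list of domains per age, which the labels name for every sample of that age. Per the submitters' processing notes the build was mm9 and the tools included bedtools and STAR 2.4.2a, without their roles. How domains were called, at which threshold and with what use of input is not given in the sources used here. Per the file values, the deposited starts and ends are multiples of 1000 bp and the deposited score is 0 for every domain, so domains carry no height. The depth of sequencing is unknown, so counting intervals are left out.

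Cover, pieces, gaps, edges and runs were computed in 1 kb bins (Python 3.11.15, pandas 2.3.3, numpy 2.4.6), and figures were made in matplotlib 3.10.9. Positions count from 1 on mm9. A gap counted only where it lay wholly in members, or wholly outside them. The rule, the members and the lists of regions named were chosen with earlier results of these data known, and all come from the same 2 lists, so nothing was tested and no p-value is given. Named regions were the 10 longest runs, the 10 members of highest lower cover, the 10 longest stretches free at both ages (those cut by the end of a run left out), and the 5 members with the largest difference in pieces each way, of which some are given. Ties among runs and in pieces went to the higher lower cover. The members furthest towards either age and the values of windows beside runs were named after their values were seen. Planned gene lists and marker lists were left out, since no gene was placed on mm9. The code was tested on made-up lists, where it returned the planted windows, pieces and shared lengths. Alternatives changed the shortest domain kept, joining of near domains, list length, window size and start, and the limits of the rule.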

Additional observations from a re-analysis of the deposited data

How the results depend on the processing

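No replicate could be left out, since each age has 1 pooled list, and the same 10 alternatives were run for each of 12 results, of which the share among members of nearly equal cover was added after the data were seen. Windows of 50 kb and 200 kb gave 4941 and 981 members, and minimums of 40% and 60% gave 3536 and 1436. The median difference was 6 points with the lists cut to equal autosomal length and 7.5 points with 200 kb windows. The share of P14 bins also covered at M2 was 85.7% with domains of 2 kb or longer, 86.2% after joining within 1 kb, 85.0% for the longest 75% of domains, 83.7% at equal length, 84.8% and 84.2% for 50 kb and 200 kb windows, and 80.6% and 88.2% for minimums of 40% and 60%. The share of members with fewer pieces at M2 was, in the same order without the longest 75%, 64.0%, 76.7%, 92.6%, 62.1%, 85.4%, 70.1% and 77.7%. Equal length removes short M2 domains, which lowers the number of M2 pieces by construction. Among members of nearly equal cover it was 52.5% to 88.2%. The share of members in runs was 71.7% with domains of 2 kb or longer, 76.4% and 67.1% for 50 kb and 200 kb windows, and 78.2% and 69.7% for the 2 minimums. The median difference stayed towards M2 in every alternative, and no other result was checked for a change of direction. No paired analysis was possible because each age has a single pooled list.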
